A study of Rattus norvegicus with 12 samples.

Results

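The comparison set liver of rats given a high-fat emulsion for 4 weeks against liver before feeding, labelled 0h. The rats were Sprague-Dawley. It rests on 6 of the 12 arrays of the study, 3 labelled 4w and 3 labelled 0h, chosen by their labels alone. The other 6 arrays hold liver after 2 and 6 weeks of the same feeding, with 3 arrays each. All 12 samples were total RNA from the right liver lobe of animals labelled as 12 weeks old, hybridised to Affymetrix Rat Genome 230 2.0 arrays. No unfed group of a later date is among them, so feeding time and calendar time cannot be told apart. The labels call the replicates technical, so p-values here measure only the spread between arrays. The sources used here give neither the number nor the sex of the rats.

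The liver makes cholesterol and fatty acids, packs them into lipoproteins, burns fatty acids in mitochondria and peroxisomes, and turns cholesterol into bile acids. When sterols reach the liver from the diet, the transcription factor SREBP2 is held in the endoplasmic reticulum by its partners Scap and the Insig proteins, and transcription of the cholesterol enzymes falls. Fatty liver is known for stored triglyceride in hepatocytes, with which inflammation, iron and zinc handling and fibrosis may change.

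Signals are given on the linear scale of the array, and changes are differences of log2(signal + 1), 4w minus 0h, ± standard error, with a Benjamini-Hochberg adjusted p from limma over all 31042 probe sets. Median signals of the 12 arrays lay between 117.6 and 130.0, and correlations across probe sets were 0.937 to 0.941 among 4w arrays, 0.938 to 0.940 among 0h arrays and 0.923 to 0.929 between them. The log2 ratio of the 3′ to the 5′ control probe set of a gene reads RNA integrity. For Gapdh it was 0.33 ± 0.03 at 4w and 0.16 ± 0.08 at 0h (SD, n = 3 each). For beta-actin it was 1.18 ± 0.22 at 4w and 1.23 ± 0.18 at 0h. The part of RNA integrity in the results was not tested. Hepatocyte transcripts were near the top of the scale in both groups: Alb, the albumin gene, had 46357, 53062 and 33186 at 4w and 39718, 45152 and 37639 at 0h. Of 31042 probe sets, 1667 (5.37%) were higher and 2046 (6.59%) lower at 4w at an adjusted p under 0.05. Represented by 1 probe set each, 1079 of 13879 genes (7.77%) were higher and 1108 (7.98%) lower, 390 of these by at least 2-fold, and the median change of all genes was -0.04. With each array centred on its median the share of calls that were higher was 63.2%, against 49.3% as measured. With only the 6 arrays of the comparison in the fit, 293 genes were higher and 378 lower. The shares of all genes, 7.77% higher and 7.98% lower, are the background for every count of list members against 0h below.

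**Figure D1:**
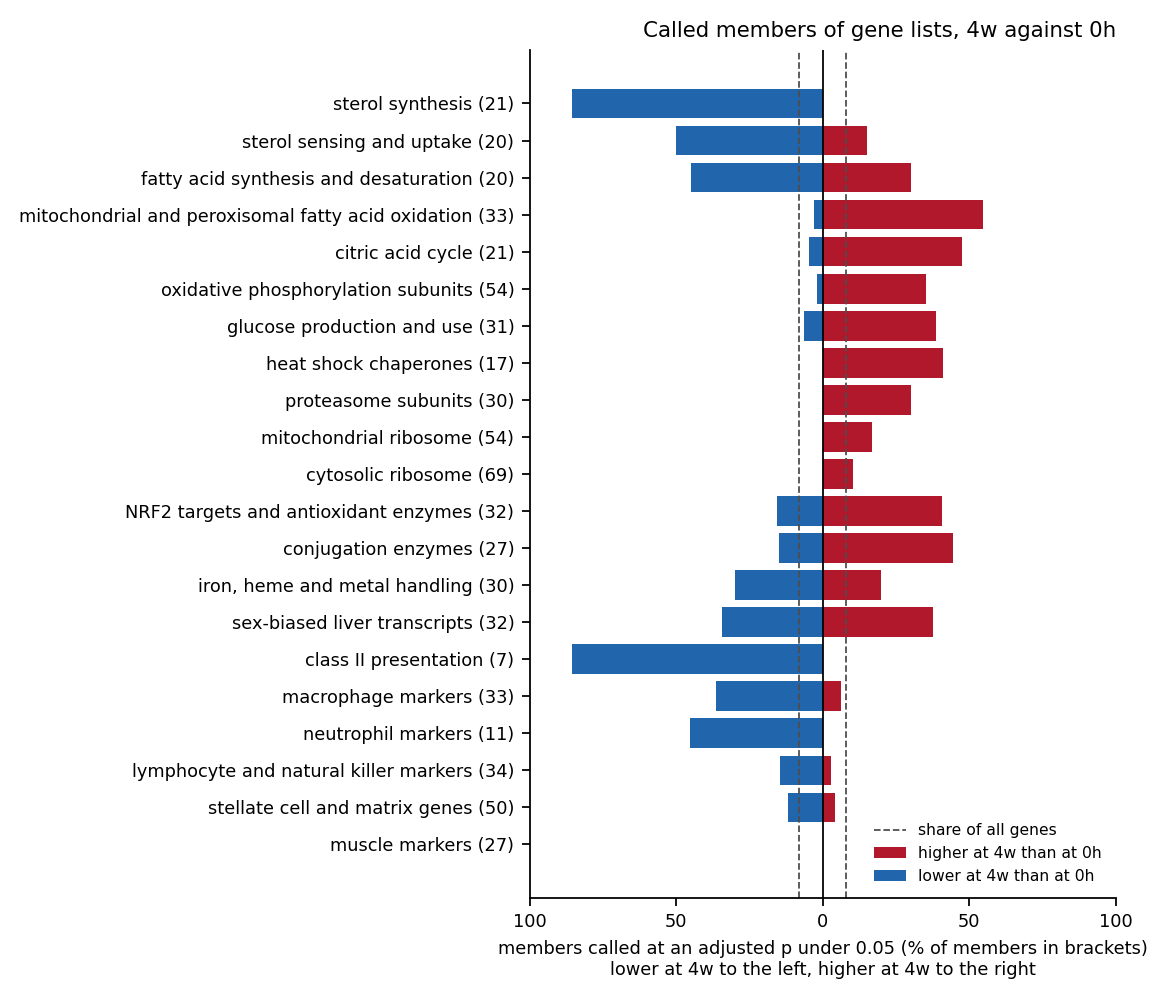
Share of the measured members of 21 gene lists that were called at an adjusted p under 0.05, in percent, with those higher at 4w to the right and those lower at 4w to the left. Dashed lines mark the shares of all genes, 7.77% higher and 7.98% lower. Sterol synthesis and class II presentation lie almost wholly to the left, fatty acid oxidation and the citric acid cycle mostly to the right, and no muscle marker was called.

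Most cholesterol synthesis enzymes were lower. Of 21 measured enzymes 18 were lower at 4w and 0 higher, with a median change of -1.02, beside 7.98% of all genes lower. Msmo1, a sterol methyl oxidase late in the pathway, had 3264, 3420 and 3599 at 4w and 14373, 13669 and 14192 at 0h (-2.04 ± 0.07, adjusted p = 7.41e-07). Acat2, the thiolase that starts the pathway, had 603.2, 733.8 and 813.4 at 4w and 2369, 2240 and 2338 at 0h (-1.70 ± 0.12, adjusted p = 3.83e-05). The groups did not overlap for either gene, and every 4w array lay far under every 0h array. Outside the 21, Aacs, which makes acetoacetyl-CoA for lipid synthesis in the cytosol, had 62.6, 146.1 and 26.6 at 4w and 806.7, 743 and 844.6 at 0h, a level at least 9.32-fold lower at 4w because 1 array was under the 30th percentile of its signals. Among the 21, the kinases that missed the test were Mvk (-0.45 ± 0.15, adjusted p = 0.0891) and Pmvk (-0.30 ± 0.09, adjusted p = 0.0571).

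**Figure D2:**
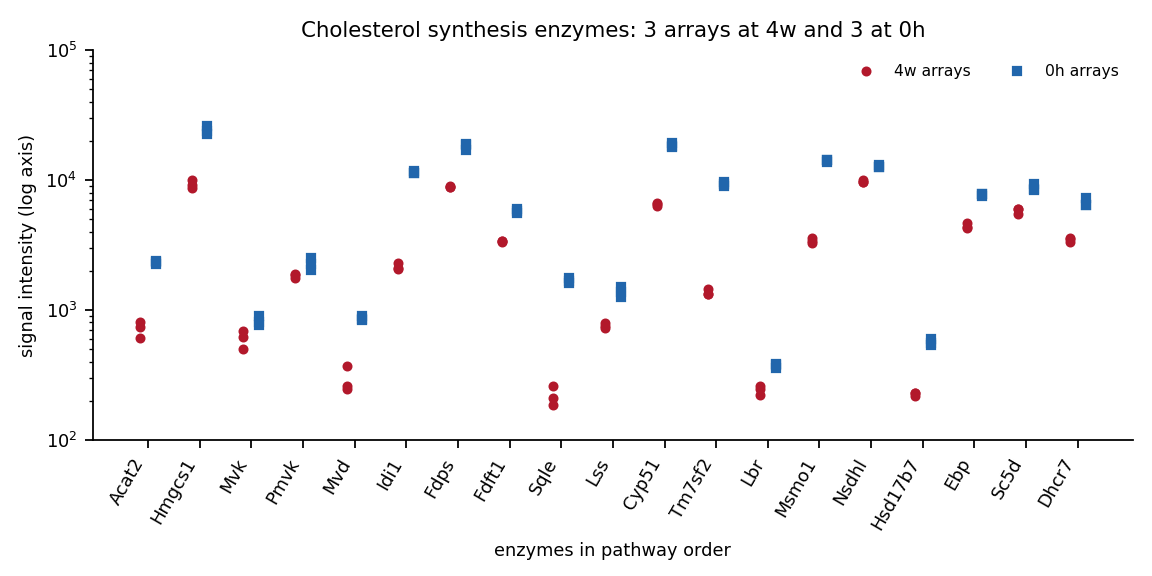
Signal of each of 19 cholesterol synthesis enzymes on the 3 arrays at 4w (circles) and the 3 at 0h (squares), on a log axis, in pathway order. The circles lie under the squares for all 19 enzymes shown, and closest to them for Pmvk, with 1747, 1852 and 1876 at 4w and 2252, 2490 and 2038 at 0h.

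Since these enzymes moved together, the 250 bases upstream of their starts were read for known letters in RefSeq promoter windows of assembly GRCr8, which were given for 16 of the 21. The CCAAT box, bound by the factor NF-Y, was in 13 of 16 (81.2%), against 34.3% of 27457 promoters of the same length. The Sp1 box GGGCGG was in 14 of 16 (87.5%), against 32.4%, and the sterol response element spelled TCACNCCAC in 0 of 16, against 0.976%. Both strands were searched, and overlaps between matches of different motifs were not counted. Tm7sf2, a sterol reductase on the minus strand at chr1:212789542-212789791, and Idi1, the isomerase of isoprenoid units on the minus strand at chr17:66547525-66547774, are shown because they are among the members with the largest change. Capitals mark the CCAAT box, which reads ATTGG on the other strand.
Tm7sf2: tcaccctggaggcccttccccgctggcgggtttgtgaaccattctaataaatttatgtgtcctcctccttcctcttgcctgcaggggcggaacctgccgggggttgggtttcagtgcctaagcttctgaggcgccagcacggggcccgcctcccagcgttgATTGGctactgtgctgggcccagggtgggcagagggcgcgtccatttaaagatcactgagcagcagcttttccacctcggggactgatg
Idi1: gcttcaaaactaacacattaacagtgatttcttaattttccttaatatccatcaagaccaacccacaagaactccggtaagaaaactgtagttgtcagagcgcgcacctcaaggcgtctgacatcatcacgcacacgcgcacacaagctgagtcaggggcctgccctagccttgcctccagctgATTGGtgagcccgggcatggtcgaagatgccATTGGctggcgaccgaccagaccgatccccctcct
The box starts 89 bases before the start of Tm7sf2 and 66 and 35 bases before that of Idi1. Tm7sf2 had 1323, 1441 and 1328 at 4w and 8995, 9616 and 9380 at 0h, and Idi1 had 2074, 2100 and 2311 at 4w and 11240, 11736 and 11261 at 0h. A match of letters is a description and not a site of binding.

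Among genes of sterol sensing, uptake and export, 10 of 20 measured were lower and 3 higher at 4w (median -0.46). The transcripts of the transcription factors did not pass the test: Srebf2, which encodes SREBP2, changed by -0.11 ± 0.10 (adjusted p = 0.548) and Srebf1 by -0.07 ± 0.07 (adjusted p = 0.576). The 2 Insig genes moved in opposite directions. Insig1 had 5994, 6324 and 5415 at 4w and 10091, 10630 and 10088 at 0h (-0.80 ± 0.08, adjusted p = 0.000329), and Insig2 had 14922, 14126 and 14060 at 4w and 11069, 10144 and 9832 at 0h (0.47 ± 0.08, adjusted p = 0.00451).

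The pair Abcg5 and Abcg8, whose proteins form the transporter that exports sterols into bile, was among the transcripts with the largest fall. Abcg5 had 82.6, 62.1 and 87.3 at 4w and 923.6, 837.7 and 804.7 at 0h (-3.46 ± 0.15, adjusted p = 2.28e-06). Abcg8 had 28.6, 47.8 and 22.5 at 4w, all under the 30th percentile of the arrays (48.2 to 49.9), and 352.1, 355.7 and 322.9 at 0h, a level at least 7.03-fold lower at 4w. Both genes were low on all 3 arrays at 4w, with no overlap with 0h. They lie head to head on chromosome 6 in GRCr8, with Abcg5 on the plus strand from 15717936 and Abcg8 on the minus strand up to 15717730, 205 bases apart. The 250 bases before Abcg5, chr6:15717686-15717935 on the plus strand, span that whole interval and are shown because both genes fell, with the CCAAT box in capitals.
Abcg5: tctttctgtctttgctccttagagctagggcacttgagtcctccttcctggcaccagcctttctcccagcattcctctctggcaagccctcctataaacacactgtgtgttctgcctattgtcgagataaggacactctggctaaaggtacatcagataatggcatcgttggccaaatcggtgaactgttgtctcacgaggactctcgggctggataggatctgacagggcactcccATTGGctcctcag

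Bile acid genes had no common direction: of 25 measured, 4 were higher and 5 lower at 4w, with a median change of 0.10. The main synthesis enzymes were lower: Cyp7a1, which sets the rate of the pathway, had 1358, 1386 and 1264 at 4w and 9244, 8440 and 9355 at 0h (-2.75 ± 0.09, adjusted p = 3.6e-07). Cyp8b1, the hydroxylase that leads to cholic acid, had 4672, 4750 and 4508 at 4w and 10791, 10960 and 10533 at 0h (-1.21 ± 0.07, adjusted p = 1.37e-05). Both enzymes were lower on every 4w array. Nr0b2, the repressor that bile acids induce through their nuclear receptor, had 568.5, 485.3 and 457.8 at 4w and 1088, 1163 and 1162 at 0h (-1.18 ± 0.10, adjusted p = 0.000125). Nr5a2, a nuclear receptor that activates bile acid synthesis, had 350.5, 359.7 and 340.1 at 4w and 546.7, 609.5 and 680.9 at 0h (-0.80 ± 0.12, adjusted p = 0.00353). The repressor and the activator were thus both low on every 4w array. Abcb4, which moves phosphatidylcholine into bile, changed by -0.90 ± 0.11 (adjusted p = 0.00122), and Akr1d1, the steroid reductase of bile acid synthesis, by 0.74 ± 0.08 (adjusted p = 0.000517). The bile salt export pump Abcb11 did not pass the test (-0.32 ± 0.09, adjusted p = 0.059).

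Genes of fatty acid synthesis and desaturation were called in both directions. Of 20 measured, 6 were higher and 9 lower at 4w (median -0.30). Elovl6, which lengthens saturated chains, had 362.9, 562 and 535.4 at 4w and 1758, 2088 and 1699 at 0h (-1.94 ± 0.16, adjusted p = 0.000125). The desaturases did not share a direction. Fads1, a desaturase of polyunsaturated fatty acids, had 5574, 6315 and 5738 at 4w and 11307, 12060 and 10236 at 0h (-0.93 ± 0.11, adjusted p = 0.000901). Fads2, another desaturase of polyunsaturated fatty acids, changed by -0.99 ± 0.08 (adjusted p = 0.000127). Acss2, which makes acetyl-CoA from acetate in the cytosol, changed by -1.08 ± 0.07 (adjusted p = 4.14e-05). In the other direction, Scd, which desaturates saturated chains, had 17545, 17353 and 14918 at 4w and 9000, 8442 and 8505 at 0h (0.94 ± 0.10, adjusted p = 0.000603). Me1, which supplies NADPH for synthesis, changed by 1.16 ± 0.07 (adjusted p = 2.1e-05). Mlxipl, the carbohydrate-sensing factor ChREBP, had 960.8, 1018 and 872.3 at 4w and 420.1, 420.4 and 412.7 at 0h (1.18 ± 0.10, adjusted p = 0.000139).

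Genes of stored and transported fat were called in both directions, where 7.77% of all genes were higher and 7.98% lower. Of 22 measured lipid droplet proteins and lipases 5 were higher and 4 lower, and of 23 triglyceride and phospholipid synthesis genes 4 were higher and 4 lower. Without 4w array 1, 2 droplet genes were higher, without 0h array 2 or 4w array 2, 3 were, and without 0h array 2 or 3 or 4w array 2 or 3, 2 were lower. Without 0h array 2 or 3 or 4w array 1 or 2, 2 triglyceride and phospholipid genes were lower. Plin2, the coat protein of hepatocyte lipid droplets, had 5900, 5808 and 5823 at 4w and 5914, 5974 and 6147 at 0h (-0.04 ± 0.07, adjusted p = 0.791). Cd36, a fatty acid transporter, had 4532, 4872 and 4870 at 4w and 8522, 8274 and 8411 at 0h (-0.82 ± 0.07, adjusted p = 0.000125). The uptake transporter was thus lower on every 4w array, while the droplet coat missed the test. Gpat4, which attaches the first fatty acid to glycerol phosphate, changed by 0.84 ± 0.09 (adjusted p = 0.000472). In the same list Gpam changed by -0.77 (adjusted p = 0.0359), Agpat3 by -0.74 (adjusted p = 0.00861) and Lpin1 by -0.63 (adjusted p = 0.00207). Of 21 apolipoproteins and assembly factors 5 were higher and 1 lower at 4w (median 0.12). These counts depended on the scaling: after quantile normalization 3 were higher and 3 lower (median 0.008), and with median centring 6 and 0. With only the 4w and 0h arrays in the fit, 2 were higher and 0 lower. Apoa4, an apolipoprotein of triglyceride-rich particles, had 20519, 20427 and 19784 at 4w and 6842, 7821 and 7377 at 0h (1.46 ± 0.08, adjusted p = 1.12e-05). Apon had 12572, 11795 and 13204 at 4w and 6320, 5174 and 6148 at 0h (1.09 ± 0.11, adjusted p = 0.000373).

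Of 33 measured enzymes of fatty acid oxidation 18 were higher and 1 lower at 4w, with a median change of 0.32, beside 7.77% of all genes higher. The lower one was Cpt1a, which admits fatty acids to mitochondria and sets the rate of their oxidation, with 3604, 3513 and 3604 at 4w and 7513, 7688 and 7258 at 0h (-1.07 ± 0.07, adjusted p = 3.92e-05). Its change was the largest in size among the called members and ran against the others. Acads, the dehydrogenase of short-chain acyl-CoA, had 2442, 2517 and 2460 at 4w and 1419, 1524 and 1511 at 0h (0.74 ± 0.10, adjusted p = 0.00156). Acaa1a, the peroxisomal thiolase, had 11167, 10335 and 10349 at 4w and 6955, 6840 and 6414 at 0h (0.66 ± 0.09, adjusted p = 0.00158). Decr1, the mitochondrial reductase for unsaturated chains, changed by 0.60 ± 0.08 (adjusted p = 0.00131). Groups did not overlap for these 3 enzymes. Among the lipid-sensing receptor PPAR alpha and its targets, 4 of 19 measured genes were higher and 2 lower, Cpt1a among the lower. The receptor gene Ppara was 1 of the 4, with 112.3, 105.2 and 23.4 at 4w and 9.5, 21.7 and 17.2 at 0h (adjusted p = 0.0478), a call not made without 4w array 1, 4w array 2 or any 0h array, nor with only the 6 arrays in the fit, the replicate block or the trended prior. Vnn1, a pantetheinase, had 1741, 1568 and 1697 at 4w and 532, 611.1 and 559.3 at 0h (1.55 ± 0.09, adjusted p = 8.74e-06), whereas Pdk4, a kinase that shuts pyruvate dehydrogenase, changed by -0.73 ± 0.10 (adjusted p = 0.0023). Of 8 ketone body enzymes 2 were lower and 0 higher. With only the 6 arrays in the fit, 5 oxidation enzymes were higher and 1 lower.

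Some other mitochondrial genes were higher by small amounts, though most oxidative phosphorylation subunits and mitochondrial ribosomal proteins were not called. Of 54 measured subunits of oxidative phosphorylation 19 were higher and 1 lower (median 0.24), and of 21 citric acid cycle enzymes 10 were higher and 1 lower (median 0.24). Sdhc, a membrane anchor of complex II, had 8733, 9044 and 9032 at 4w and 5868, 5558 and 6105 at 0h (0.61 ± 0.08, adjusted p = 0.00161). Of 54 mitochondrial ribosomal proteins 9 were higher and 0 lower, among them Mrps30 with 2798, 2557 and 2381 at 4w and 1630, 1682 and 1591 at 0h (0.66 ± 0.08, adjusted p = 0.00113). Cytosolic ribosomal proteins stayed near the background, with 7 of 69 higher and 0 lower. These small changes depended on the scaling and on single arrays: after quantile normalization 6 oxidative phosphorylation subunits were higher, and without any 1 array of the comparison between 8 (without 0h array 1) and 14 (without 4w array 3), with 11 without 0h array 2 and 9 without each of the others. For the citric acid cycle the count was 5 after quantile normalization 5 without 0h array 1 or 4w array 1, and 6 without 0h array 3 or 4w array 2. Without these 4 arrays in turn 5 mitochondrial ribosomal proteins were higher each time. With only the 6 arrays in the fit, 2 oxidative phosphorylation subunits and 0 citric acid cycle enzymes were higher.

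**Figure D3:**
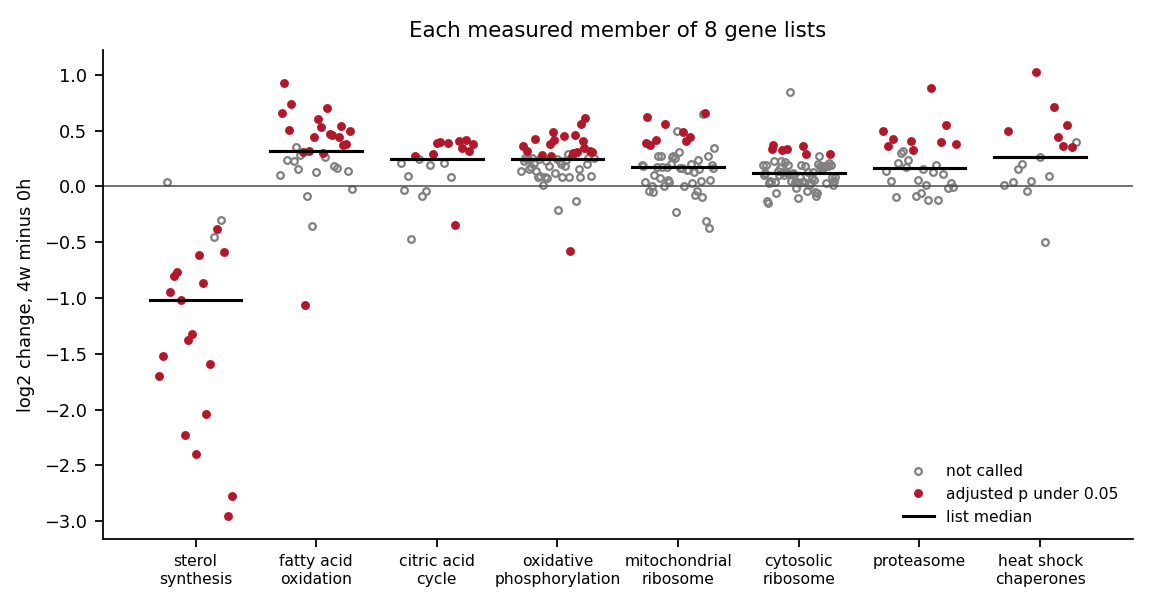
Log2 change, 4w minus 0h, of each measured member of 8 gene lists, with called members filled and the list median as a bar. Sterol synthesis reaches down to -2.96 (Sqle), whereas the mitochondrial, ribosomal, proteasome and chaperone lists lie close to 0, with medians between 0.12 and 0.32.

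Of 31 genes of glucose production and use 12 were higher and 2 lower at 4w (median 0.30), and 6 were higher without 4w array 1 and 7 without 4w array 2 or 0h array 1. Pfkfb1, the liver enzyme that sets fructose 2,6-bisphosphate, had 2430, 2620 and 2452 at 4w and 1434, 1388 and 1322 at 0h (0.86 ± 0.08, adjusted p = 0.000303). Gpi, the isomerase of glucose 6-phosphate, changed by 0.66 ± 0.07 (adjusted p = 0.000396) and Gbe1, which branches glycogen, by 0.66 ± 0.07 (adjusted p = 0.000603). The key genes of glucose release did not pass the test: Pck1 changed by 0.07 ± 0.08 (adjusted p = 0.65) and G6pc1 by -0.01 ± 0.08 (adjusted p = 0.945). Several amino acid enzymes were lower, with 9 of 40 measured lower and 7 higher. Sds, which turns serine into pyruvate, had 1351, 1096 and 1365 at 4w and 5408, 5400 and 5208 at 0h (-2.08 ± 0.11, adjusted p = 8.13e-06). Got1, the cytosolic aspartate aminotransferase, had 3157, 3130 and 3003 at 4w and 6699, 6861 and 6985 at 0h (-1.15 ± 0.07, adjusted p = 2.4e-05). Asl, an enzyme of the urea cycle, changed by -1.15 ± 0.08 (adjusted p = 3.96e-05). Without any 1 array 1 to 4 amino acid genes were higher (1 without 0h array 1 or 3 or 4w array 1 or 2, and 4 without 0h array 2 or 4w array 3).

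Protein quality genes rose in part. Of 17 heat shock chaperones 7 were higher and 0 lower (median 0.26), and of 30 proteasome subunits 9 were higher and 0 lower (median 0.16). Hsp90aa1, the inducible cytosolic HSP90, had 17549, 17170 and 16475 at 4w and 8489, 8334 and 8372 at 0h (1.02 ± 0.07, adjusted p = 3.23e-05). Of 25 genes of endoplasmic reticulum folding 9 were higher and 4 lower. Hyou1, a chaperone of that compartment, had 959.7, 920 and 789.8 at 4w and 440.6, 423.2 and 498.2 at 0h (0.97 ± 0.11, adjusted p = 0.000813). Xbp1, the factor that expands it, changed by 0.58 ± 0.07 (adjusted p = 0.000726), whereas the stress markers Hspa5 (0.05 ± 0.09, adjusted p = 0.761) and Ddit3 (-0.03 ± 0.12, adjusted p = 0.93) did not pass the test. Without 4w array 1, 4 proteasome subunits were higher, and with only the 6 arrays in the fit 2 proteasome subunits and 2 chaperones were.

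Antioxidant and detoxification genes were called in both directions. Of 32 targets of NRF2 and antioxidant enzymes 13 were higher and 5 lower, of 27 conjugation enzymes 12 were higher and 4 lower, and of 29 cytochrome P450 genes of families 1 to 3 10 were higher and 5 lower. Without 0h array 2 or 4w array 1, 2 NRF2 and antioxidant genes were lower, without any of the other 4 arrays 3 were, and with only the 6 arrays in the fit 4 were higher and 2 lower. Gclc, the catalytic subunit that starts glutathione synthesis, had 3142, 3094 and 2939 at 4w and 1375, 1523 and 1438 at 0h (1.08 ± 0.08, adjusted p = 4.29e-05). Akr7a3, an aldehyde reductase, had 2617, 2495 and 2573 at 4w and 1234, 1170 and 1286 at 0h (1.06 ± 0.10, adjusted p = 0.000342). Nqo1, a standard NRF2 target, did not pass the test (0.02 ± 0.09, adjusted p = 0.909), and Nfe2l2, which encodes NRF2, changed by -0.40 ± 0.08 (adjusted p = 0.0155). Gsta3, a glutathione transferase, had 911.5, 815.6 and 834.7 at 4w and 1674, 1402 and 1647 at 0h (-0.88 ± 0.09, adjusted p = 0.000534). Sult2b1, a sterol sulfotransferase, had 153.1, 135.2 and 134.5 at 4w and 13.8, 9.9 and 14.8 at 0h, a level at least 2.78-fold higher at 4w, as all 0h values were under the 30th percentile.

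Metal handling held some of the largest falls among abundant transcripts. Of 30 measured genes for iron, heme and metals 6 were higher and 9 lower at 4w. The metallothioneins Mt1 and Mt2A bind zinc and copper and are induced by zinc through the factor MTF1 and by glucocorticoids. Mt2A had 1914, 1936 and 1821 at 4w and 16296, 16303 and 15764 at 0h (-3.09 ± 0.07, adjusted p = 6.14e-08). Mt1 had 6466, 6219 and 5943 at 4w and 33510, 38519 and 31546 at 0h (-2.47 ± 0.09, adjusted p = 9.94e-07). Both were far lower on every 4w array, and both were also lower at 4w than at 2w and 6w, by 1.12 and 0.87 for Mt1 and by 0.95 and 0.97 for Mt2A on the log2 scale. Slc30a1, a zinc exporter that zinc induces, had 586.6, 781.4 and 655.9 at 4w and 1259, 1227 and 1120 at 0h (-0.84 ± 0.11, adjusted p = 0.00159). Slc39a4, a zinc importer, had 1764, 1845 and 1429 at 4w and 799.5, 612 and 917.8 at 0h (1.12 ± 0.15, adjusted p = 0.00194), a call not made with only the 6 arrays in the fit. Mtf1 itself did not pass the test (-0.28 ± 0.10, adjusted p = 0.111). Hamp, the gene of the iron hormone hepcidin, changed by -0.61 ± 0.09 (adjusted p = 0.00256).

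The 250 bases upstream of the metallothionein genes are shown because both fell and because metal response elements there are the sites through which MTF1 acts. The core was spelled TGCACNC or TGCGCNC and read on both strands; 6 of 21 metal genes with a promoter window held it (28.6%), against 21.2% of all promoters. In the sequences its matches are in capitals, as they stand on the strand of the gene. Both genes lie on the minus strand of chromosome 19 in GRCr8, 4958 bases apart, with windows at chr19:10832976-10833225 for Mt1 and chr19:10838709-10838958 for Mt2A.
Mt1: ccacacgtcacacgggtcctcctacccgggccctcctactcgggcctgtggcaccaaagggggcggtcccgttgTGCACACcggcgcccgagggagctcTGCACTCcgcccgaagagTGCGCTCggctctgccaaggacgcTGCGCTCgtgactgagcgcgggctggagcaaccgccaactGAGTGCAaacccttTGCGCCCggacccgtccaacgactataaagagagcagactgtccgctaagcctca
Mt2A: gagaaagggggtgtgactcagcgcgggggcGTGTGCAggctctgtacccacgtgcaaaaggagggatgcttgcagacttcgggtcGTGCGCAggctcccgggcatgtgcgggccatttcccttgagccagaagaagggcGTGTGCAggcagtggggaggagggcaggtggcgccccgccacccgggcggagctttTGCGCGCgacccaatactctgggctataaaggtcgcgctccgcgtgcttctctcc
The letters matched 6 times in the Mt1 window and 4 times in the Mt2A window, and the match nearest to the start lay 55 bases before it in both.

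Genes that present antigen on class II molecules fell as a group. In bulk tissue fewer cells of a type and less RNA per cell cannot be told apart. Of 7 measured, 6 were lower and 0 higher at 4w (median -0.91), and these 6 were also lower at 4w than at both 2w and 6w, where 1.03% of all genes were. RT1-Ba, a class II alpha chain, had 659.6, 733.9 and 688.4 at 4w and 2266, 2462 and 2302 at 0h (-1.76 ± 0.08, adjusted p = 1.88e-06). RT1-Da, the alpha chain of another class II molecule, had 2379, 2515 and 2295 at 4w and 4600, 4354 and 4568 at 0h (-0.91 ± 0.07, adjusted p = 8.51e-05). Every 4w array lay under every 0h array for both chains. Cd74, the invariant chain that guides class II molecules, had 3598, 3446 and 2833 at 4w and 4996, 4940 and 4927 at 0h (-0.60 ± 0.11, adjusted p = 0.00704), a call not made with only the 6 arrays in the fit. Ciita, the master factor of these genes, was near the 30th percentile in both groups and did not pass the test. The call for RT1-Ba and RT1-Bb rested on the brightest probe set: over the mean of all their probe sets the changes were -0.65 (adjusted p = 0.077) and -0.44 (adjusted p = 0.439).

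Markers of immune cells were lower in part. Of 33 macrophage markers 12 were lower and 2 higher (median -0.41), and their summed signal was 70868 to 71335 at 4w and 76328 to 78123 at 0h. C1qa, a complement chain made by macrophages, had 4967, 5122 and 5831 at 4w and 7968, 7367 and 7891 at 0h (-0.55 ± 0.09, adjusted p = 0.0058), and Ptprc, the pan-leukocyte CD45, changed by -0.54 ± 0.09 (adjusted p = 0.00642). The Kupffer cell lectin Clec4f did not pass the test (-0.24 ± 0.08, adjusted p = 0.0978), and Cd14, the lipopolysaccharide co-receptor, was higher, with 7873, 7992 and 7469 at 4w and 4977, 4593 and 4925 at 0h (0.69 ± 0.09, adjusted p = 0.00133). Of 11 neutrophil markers 5 were lower and 0 higher, with a summed signal of 2570 to 2807 at 4w and 5544 to 5855 at 0h. Lcn2, an iron-binding protein of neutrophils that stressed hepatocytes also make, had 77.8, 98.4 and 103.1 at 4w and 541.8, 500.7 and 525.7 at 0h (-2.49 ± 0.12, adjusted p = 4.65e-06). Of 34 lymphocyte and natural killer markers 5 were lower and 1 higher, with a summed signal of 6526 to 6999 at 4w and 8567 to 8886 at 0h. Without 0h array 1 or 3, 3 neutrophil and 3 lymphocyte markers were lower. The part of cell numbers in these changes was not tested.

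Inflammatory signals were mixed. Of 40 cytokines and chemokines 8 were lower and 3 higher, and of 36 interferon genes 5 were lower and 9 higher. Without 0h array 1 or 2, 5 cytokines were lower, and without 0h array 1, 0h array 3 or 4w array 2, 5, 5 and 4 interferon genes were higher. Il1b, the gene of interleukin-1 beta, had 513.9, 525.7 and 596.4 at 4w and 870.7, 878.1 and 847.8 at 0h (-0.67 ± 0.08, adjusted p = 0.00116). Il1r1, its receptor, had 226.8, 262.5 and 276.5 at 4w and 953.4, 851.6 and 864.5 at 0h (-1.80 ± 0.12, adjusted p = 4.14e-05). Ligand and receptor were both lower on every 4w array. Mif, a cytokine that hepatocytes also make, had 14922, 14705 and 12973 at 4w and 5528, 6087 and 5339 at 0h (1.33 ± 0.10, adjusted p = 4.67e-05). Among interferon genes, Ifi44l had 1544, 1764 and 1812 at 4w and 854.3, 892.5 and 917.1 at 0h (0.94 ± 0.10, adjusted p = 0.000583), whereas Gbp2 changed by -0.69 ± 0.10 (adjusted p = 0.00277). Of 32 acute phase proteins 2 were higher and 3 lower, near the shares of all genes (7.77% higher and 7.98% lower). Of 37 complement and coagulation factors 2 were higher and 7 lower. Cfp, the gene of properdin, had 491.8, 538 and 523.5 at 4w and 1593, 1316 and 1436 at 0h (-1.48 ± 0.12, adjusted p = 8.71e-05).

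Fibrosis genes were close to the background. Of 50 stellate cell and matrix genes 6 were lower and 2 higher, with 1 lower without 0h array 3, 2 without 4w array 3 and 3 without 4w array 1. Col1a1, the main fibrillar collagen, had 196, 151.2 and 207.1 at 4w and 155, 139.9 and 157.5 at 0h (0.28 ± 0.17, adjusted p = 0.37), and Col3a1 changed by 0.07 ± 0.07 (adjusted p = 0.589). The matrix crosslinking oxidase Lox stood apart, with 1869, 1884 and 1706 at 4w and 540.2, 480.1 and 689.6 at 0h (1.69 ± 0.15, adjusted p = 0.000154). Of 26 endothelial markers 4 were lower and 0 higher, among them Plvap, a protein of capillary fenestrae, with 346.4, 292.1 and 316 at 4w and 707.6, 712.8 and 700.8 at 0h (-1.15 ± 0.15, adjusted p = 0.00142). Of 53 genes of DNA replication and mitosis 8 were lower and 2 higher, with 2 lower without 0h array 3 or 4w array 2 and 4 without 0h array 1 or 2 or 4w array 3. Cdkn1a, the cell cycle inhibitor p21, had 1056, 1073 and 998.4 at 4w and 176, 296.4 and 260.4 at 0h (2.12 ± 0.21, adjusted p = 0.000318).

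Transcription factors of hepatocyte identity changed in both directions, with 9 of 38 lower and 6 higher, of which 3 were higher without 0h array 1 or 3 or 4w array 1 or 2. Hnf4a, a master factor of hepatocytes, had 1022, 1228 and 966.8 at 4w and 2127, 2149 and 2140 at 0h (-1.0 ± 0.10, adjusted p = 0.000397). Atf5, a stress-responsive factor, had 5000, 5410 and 5193 at 4w and 2950, 3201 and 2694 at 0h (0.82 ± 0.09, adjusted p = 0.00068). Clock output also differed: Nr1d2, a repressor of the circadian loop, had 156.3, 182.7 and 257.1 at 4w and 1015, 955.3 and 1044 at 0h (-2.36 ± 0.22, adjusted p = 0.000219). Per2 had 394.2, 424.2 and 398.7 at 4w and 164.5, 156.1 and 159.7 at 0h (1.33 ± 0.11, adjusted p = 0.000106), and Cry1, its partner in the same repressor complex, changed by 1.29 ± 0.11 (adjusted p = 0.000106). Dbp, a clock-driven activator, was at least 8.37-fold lower at 4w. Of 22 clock genes 5 were higher and 3 lower. The sources used here give no hour of sampling, and its part was not tested.

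Transcripts that growth hormone sets differently in male and female rat liver held many of the largest differences. Of 32 measured, 12 were higher and 11 lower at 4w, and without any 1 array 11 or 12 were higher and 11 lower. Prlr, the prolactin receptor, which is abundant in female rat liver, had 1033, 1154 and 1140 at 4w and 8205, 8271 and 8045 at 0h (-2.88 ± 0.08, adjusted p = 1.32e-07). Sult2a2, a hydroxysteroid sulfotransferase, had 941.5, 874.7 and 1001 at 4w and 17376, 18424 and 15604 at 0h (-4.19 ± 0.11, adjusted p = 1.32e-07). Trim24, a transcriptional cofactor, had 280, 260.9 and 298.9 at 4w and 2493, 2378 and 2333 at 0h (-3.10 ± 0.14, adjusted p = 2.84e-06). These 3 transcripts were lower on every 4w array by several fold. Obp3, of the alpha-2u globulin family of male rat liver, had 40948, 38475 and 41853 at 4w and 12790, 13876 and 12323 at 0h (1.64 ± 0.09, adjusted p = 7.43e-06). Cyp2a2, a steroid hydroxylase of male rat liver, had 17040, 16788 and 16070 at 4w and 8074, 8566 and 8108 at 0h (1.01 ± 0.07, adjusted p = 4.39e-05). Hao2, a peroxisomal oxidase of hydroxy acids, changed by 1.20 ± 0.09 (adjusted p = 5.15e-05). Sult2a2, Obp3 and Cyp2a2 belong to families of near-identical genes, whose transcripts probes may share. Whether sex or individual animals differed between the groups cannot be told from the labels.

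Akr1b7, an aldose reductase-like enzyme, had 60.1, 89.4 and 104.4 at 4w and 14436, 14806 and 13815 at 0h (-7.42 ± 0.19, adjusted p = 1.21e-07). A transcript of a pancreatic digestive enzyme was among the lowest at 4w: Cpa1, a carboxypeptidase, had 15.9, 6.5 and 10.9 at 4w, all under the 30th percentile, and 6212, 6538 and 6044 at 0h, a level at least 128-fold lower. Of 36 pancreas markers 3 were lower and 2 higher, and their summed signal was 40244 to 41064 at 4w and 37145 to 39764 at 0h. The trypsinogen Prss2 had 1.2, 1.3 and 1.8 at 4w and 1.9, 0.9 and 1.8 at 0h, and the lipase Cel was under the 30th percentile on all 6 arrays, so defining markers of exocrine pancreas were dim in both groups. Serpinb9b, a protease inhibitor, had 52.2, 82.4 and 52.3 at 4w and 974.9, 963.4 and 944.3 at 0h (-3.96 ± 0.50, adjusted p = 0.00132). In the other direction, Stac3, an adaptor of calcium channels in muscle, had 8843, 8651 and 8222 at 4w and 1841, 1905 and 1729 at 0h (2.23 ± 0.08, adjusted p = 8.33e-07), while 0 of 27 muscle markers were called either way. Among characterised genes whose groups did not overlap, the 12 highest called log2 changes belonged to transcripts under the 30th percentile on all 3 arrays at 0h. An example was Nppa, the natriuretic peptide gene, with 121.9, 165.6 and 133.8 at 4w and 10.8, 44 and 23.7 at 0h. Its level was at least 2.77-fold higher at 4w, a call not made with only the 6 arrays.

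**Figure D4:**
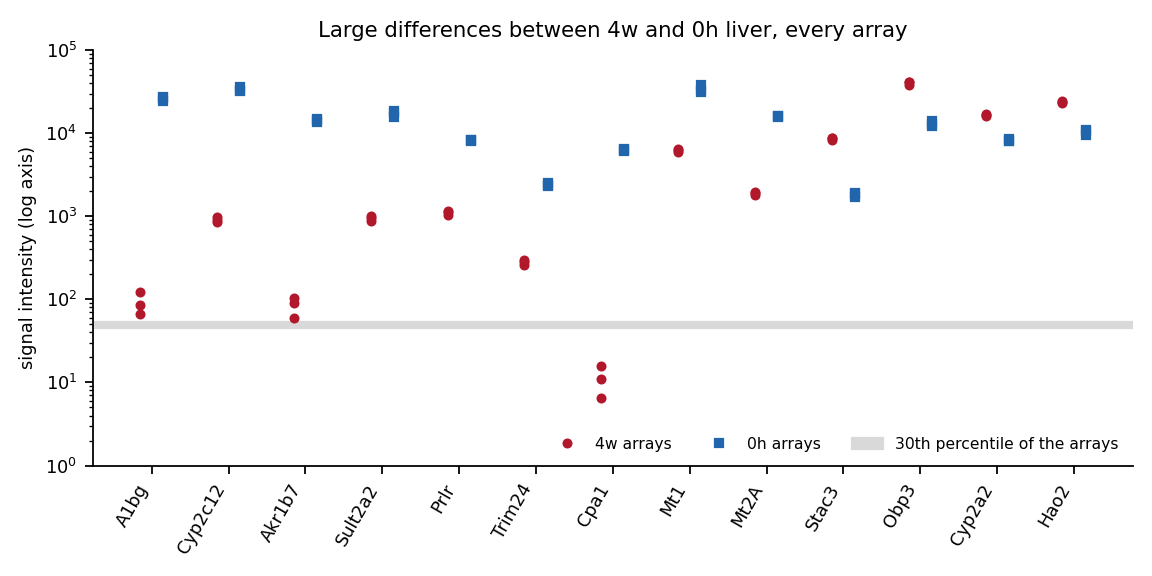
Signals of 13 transcripts on the 3 arrays at 4w (circles) and the 3 at 0h (squares), on a log axis, with a grey band for the 30th percentile of the 12 arrays (45.5 to 54.0). The first 9 are lower at 4w on every array, with Cpa1 under the band, and the last 4 (Stac3, Obp3, Cyp2a2 and Hao2) are higher.

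Liver at 4w also differed from the other feeding times. The comparisons with 2w and 6w share the 4w arrays, and a gene was counted when it was called in both in the same direction: 67 of 13879 genes (0.483%) were higher and 143 (1.03%) lower. Of the 67, 47 were also higher and 3 lower than at 0h, and of the 143, 96 were also lower and 4 higher than at 0h. Lox had means of 78.01 at 2w and 204.2 at 6w, so it was higher at 4w by 4.53 and 3.15 on the log2 scale (adjusted p = 2.05e-06 and 1.62e-05). Cish and Socs2, feedback inhibitors that growth hormone induces through STAT5, were both among the highest. Cish had 1019, 961.2 and 886.6 at 4w and 395.6, 344.6 and 424.1 at 0h, with means of 332.4 at 2w and 196.9 at 6w. Socs2 had 979.6, 980.4 and 1086 at 4w and 564.5, 513.5 and 611.5 at 0h, with means of 232.5 at 2w and 451.7 at 6w. Both inhibitors were higher at 4w than at any other time, and for each the 3 differences were called. Ghr, the growth hormone receptor, changed by 0.08 ± 0.08 against 0h (adjusted p = 0.554) and Igf1 by 0.04 ± 0.08 (adjusted p = 0.809).

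Onecut1, the hepatocyte factor HNF6, was lower at 4w than at 0h and higher than at the other feeding times. It had 3190, 3458 and 3116 at 4w and 5447, 5954 and 6161 at 0h (-0.85 ± 0.10, adjusted p = 0.00068), with means of 734.9 at 2w and 958.7 at 6w. Slc25a30, a mitochondrial carrier, had 2266, 2272 and 2263 at 4w and 2419, 2440 and 2600 at 0h, which missed the test, with means of 786.9 at 2w and 1100 at 6w. Both genes thus lay between 0h and the other feeding times or beside 0h. Cxcl1, a chemokine that draws neutrophils, had 487.4, 394.2 and 439.6 at 4w and 868.1, 928.3 and 813.4 at 0h, with means of 2221 at 2w and 1981 at 6w. Cyp1a1, a target of the aryl hydrocarbon receptor, was under the 30th percentile on all 3 arrays at 4w and on 2 at 0h, with means of 232.8 at 2w and 767.3 at 6w. Lcn2 and Nr0b2 were likewise lower at 4w than at 0h, 2w and 6w. Without 4w array 1, 27 genes were higher and 84 lower than at both other feeding times. Without 4w array 2 the counts were 32 and 92, and without 4w array 3 they were 38 and 95.

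**Figure D5:**
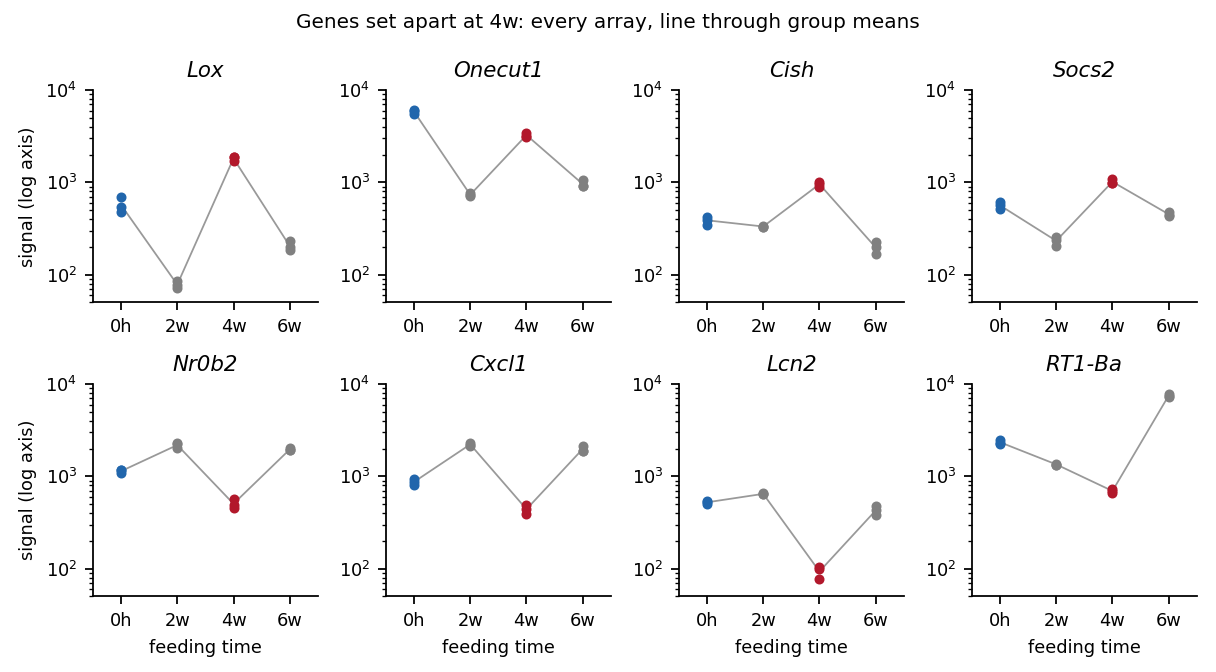
Signal of 8 genes on each array at 0h, 2w, 4w and 6w, on log axes with the same range, with a line through the group means. Lox, Cish and Socs2 peak at 4w, Onecut1 returns part of the way towards 0h at 4w, and Nr0b2, Cxcl1, Lcn2 and RT1-Ba are lowest at 4w.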

How the data were processed

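Total RNA of 12 liver samples had been hybridised to Affymetrix Rat Genome 230 2.0 arrays, 3 each for 0h, 2w, 4w and 6w. The deposited intensities were made by the authors with GCOS 2.0, per the submitters' processing notes; the sources used here state no background or scaling step. The trimmed mean of each array (2% from each end) was 500.2 to 500.3, so the values had been scaled. The 54 deposited ratio columns were not used.

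Of 31099 probe sets 57 controls were left out. Values were taken as log2(signal + 1) and fitted in R 4.3.3 by limma 3.58.1 (functions lmFit, eBayes; a mean per group over all 12 arrays, residual df 8, prior df 1.22), with Benjamini-Hochberg adjustment over 31042 probe sets and calls at 0.05. Symbols came from the gene columns of the deposited sheet, updated through RefSeq tables, for 19858 probe sets; each of 13879 genes was represented by its probe set with the highest mean. A value under the 30th percentile of its array was taken as dim, and folds against dim values are lower bounds; the number of arrays limits precision. Genes named included the 12 highest and 12 lowest called changes among characterised genes whose 4w and 0h arrays did not overlap. Up to 6 called members of each of 54 lists were also named. So were the 8 characterised genes most apart from 2w and 6w in each direction, and members whose role a sentence needs. Stac3, Obp3, Hao2, C1qa and Fads1 were chosen after their values had been seen. The members and lists were chosen with earlier results of these data known, and the metal response element was added after values had been seen. Replicate numbers did not pair 4w with 0h arrays (correlations 0.019, -0.005 and -0.010). On simulated data for 4w against 0h over 31042 probe sets, 7 of 62 changes of 1.5-fold, 26 of 73 of 2-fold and 40 of 65 of 4-fold were recovered, with 2 false among 75 calls. Far fewer probe sets were changed there than the 3713 called in the data. The simulation therefore does not give the sensitivity of the comparison. Alternatives were quantile normalization, median centring, a pseudocount of 16, a filter on dim probe sets, the mean of a gene's probe sets, a trended robust prior, a replicate block, only the 6 arrays, and each array left out. Some results are not reported here.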

Additional observations from a re-analysis of the deposited data

Results flagged for a closer look

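For the genes below the change against 0h ran in opposite directions at 4w and at another feeding time, and the difference between the feeding times was itself called in the limma fit; all differences are log2, and no explanation was tested. Class II presentation was lower at 4w and higher at 6w than at 0h: 4w minus 6w was -3.43 for RT1-Ba, -3.28 for RT1-Bb, -2.71 for RT1-Db1, -2.59 for RT1-Da and -2.19 for Cd74. Class I genes of the same region ran the same way, with -1.63 for RT1-CE5 and -2.32 for RT1-N3. So did Ifit1 (-1.57), Gbp2 (-1.77), Ccl5 (-1.44) and the Fc receptor gene Fcgr3a (-1.0). Akr1c1 (1.59), Mx2 (1.55) and Cish (2.28) were higher at 4w and lower at 6w than at 0h.

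Against 2w, the difference was -1.99 for S100a8, -1.72 for S100a9 and -0.92 for Lgals3, genes of myeloid cells. For Cd63, listed with the lysosome genes, it was -0.85. It was -1.33 for Insig1, -1.29 for Igfbp1 and -1.51 for Gpx2, and 1.73 for Cxcl9 and 2.13 for Socs2. For 4 genes both other feeding times ran against 4w: Nr0b2 differed by -2.12 from 2w and -1.96 from 6w, Cxcl1 by -2.34 and -2.17, Cyp1a1 by -4.50 and -6.23, and Lox by 4.53 and 3.15. Cyp1a1 was dim on all 3 arrays at 4w and on 2 at 0h.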

How the results depend on the processing

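Genes higher and lower at 4w than at 0h numbered 1079 and 1108; with only the 6 arrays they were 293 and 378, with median centring 710 were lower, and with a trended robust prior 1648 were higher. Leaving out 1 array gave 717 to 828 higher and 690 to 886 lower. For probe sets (1667 and 2046) the counts were 495 and 687 with only the 6 arrays, 1344 lower with median centring, and 1105 to 1299 higher and 1277 to 1670 lower without 1 array. Genes apart from both 2w and 6w (67 and 143) numbered 119 and 239 after the filter on dim probe sets, 252 and 297 with the trended robust prior, 91 lower with median centring, and 27 to 58 and 84 to 122 without 1 array. With the replicate block, whose numbers do not pair the arrays, 834 genes were higher and 863 lower, and 30 and 82 were apart; probe sets numbered 1313 and 1587. The genes apart could not be computed with only the 6 arrays. Of 289 named genes 122 lost their call with only the 6 arrays, 22 with quantile normalization, 16 with median centring and 27 with the replicate block. Gstt2 (0.128, adjusted p = 0.503) and Tfe3 (0.246, adjusted p = 0.67) turned sign with the mean of their probe sets; the cause was not tested. Median centring and quantile normalization moved the median of all probe sets to 0.032 and 0.009, against -0.044 as deposited.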
